A study of Saccharomyces cerevisiae with 9 samples.

Results

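The 10 genes described here encode the regulators of glucose repression and the Hap complex of budding yeast: the DNA-binding repressors MIG1, MIG2 and MIG3, the kinase subunits SNF1 and GAL83, the phosphatase subunit REG1, and the subunits HAP2, HAP3, HAP4 and HAP5 of the Hap activator. They were chosen by gene name from the 6215 genes of the deposited table, and all 10 were measured in every library and passed the filter of a mean of at least 10 normalized reads. Polyadenylated RNA was sequenced from 3 haploid strains with 3 biological replicates each, after 24 h of growth in synthetic complete medium at 28 °C and with no treatment. The triple mutant carried deletions of SEG1, NCE102 and PIL1 in a MATα his3Δ1 leu2Δ0 LYS2 MET15 ura3Δ0 background. The pil1 strain was BY4742 with PIL1 replaced by kanMX4, and it was MATα his3Δ1 leu2Δ0 lys2Δ0 ura3Δ0. The wild type was BY4742 itself, with the same MATα his3Δ1 leu2Δ0 lys2Δ0 ura3Δ0 genotype and PIL1 intact. All 3 strains thus lacked HIS3, LEU2 and URA3 function and were of the same mating type. The triple mutant also differed from both other strains in carrying LYS2, so the effects of that gene and of the additional deletions cannot be told apart. Pil1 is the main structural protein of eisosomes, the furrow-forming assemblies under the plasma membrane, Seg1 organises them, and Nce102 resides in the membrane of the same domain. The sources used here give neither the glucose level nor the cell density at harvest.

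When glucose is plentiful, Mig1 and its relatives bind promoters and recruit the Cyc8-Tup1 corepressor, which keeps genes for other carbon sources and for respiration low. When glucose runs out, the Snf1 kinase, the yeast AMP-activated kinase, is phosphorylated by upstream kinases and in turn phosphorylates Mig1, which leaves the nucleus. The Reg1-Glc7 phosphatase counters Snf1 while glucose is present. Hap2, Hap3 and Hap5 form the DNA-binding part of a complex that recognises CCAAT, and Hap4 supplies its activation domain and is the subunit known to vary most with the carbon source.

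The promoters of these genes are shown first because the family is known for its own binding motifs. The 500 bases before each start codon were read from the R64 genome and searched on both strands for Mig1-type letters (the pair CC, or the pair CT, or the pair GC, or the pair GT, then followed by GGGG, so that a position on a strand can match only 1 form) and for CCAAT. Mig1-type letters were found before 4 of the 10 regulators, namely the 3 MIG genes and HAP4, and in 22.5% of 5791 such windows in the genome. CCAAT was found before 6 of the 10 (MIG2, SNF1, GAL83, REG1, HAP3 and HAP4) and in 62.7% of all windows. The stretches below run 5′ to 3′ on the strand of the gene, with the matched letters or their reverse complement in capitals. Every Mig1-type match is shown, but of the CCAAT matches only that of HAP4. Those of MIG2, SNF1, GAL83, REG1 and HAP3 are left out.
HAP4, Mig1-type, chrXI:231947-231976, plus strand: cacctctctaaaCCCCAGttttatatcgta
HAP4, CCAAT, chrXI:232122-232150, plus strand: ccacacatatttATTGGtctcctagtaca
MIG1, Mig1-type, chrVII:433510-433539, minus strand: gtagcggccgggCCCCGCgagaaactccag
MIG1, Mig1-type, chrVII:433373-433402, minus strand: tgcggactgccaCCCCACtccgggaaaacc
MIG1, Mig1-type, chrVII:433261-433290, minus strand: tggacgagaaaaGTGGGGaagagcaagcag
MIG1, Mig1-type, chrVII:433183-433212, minus strand: ccttttttttcaCCCCAGtactcattaacg
MIG2, Mig1-type, chrVII:95483-95512, plus strand: cgggataagaaaCCCCGCctccactttttt
MIG3, Mig1-type, chrV:212201-212230, minus strand: atggggggtgttCTGGGGcagaaaccaaaa
MIG3, Mig1-type, chrV:212122-212151, minus strand: cttccttggagaCCCCACcaaaaaatcctt
MIG1 had 4 Mig1-type matches, MIG3 had 2, and MIG2 and HAP4 had 1 each. A match of letters is a description of the window and was not tested as a binding site.

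Library depth, recovered as whole reads, lay between 21064051 and 27014469 reads, and the 10 regulators had between 251 and 61956 reads each in a library. Values are given as normalized reads, that is, reads divided by the size factor of the library. The deleted genes were checked first. PIL1 lay at 89.9 to 99.9 normalized reads in the triple mutant and 111 to 116 in pil1, against 15878 to 21404 in the wild type. SEG1 reached at most 27.3 normalized reads in the triple mutant, against at least 6130 in the wild type. NCE102 reached at most 239 in the triple mutant, against at least 83910 in the wild type. Markers of MATα cells were above 0 in all libraries, with a summed level of 5759 to 6832 normalized reads in the triple mutant, 11883 to 12546 in pil1 and 14706 to 16365 in the wild type over 4 genes. The first principal component over all tested genes held 81.3% of the variance and set the 3 triple mutant libraries apart from the other 6. Triple mutant replicate 1 stood apart from its own group (chi-square per degree of freedom of 401 and 315 against replicates 2 and 3). Between replicates 2 and 3 the value was 52.7. Some results below are therefore also given without replicate 1. Other folds are given only with it, among them those of CAT8, ADR1, HXK1, CYC1 and COX5A. Replicate 1 was the highest triple mutant library for CAT8, ADR1, CYC1 and COX5A and the lowest for HXK1, so the size of these folds leans on it. Every triple mutant library of these genes still lay above every wild type library. In the other strains the chi-square per degree of freedom set replicate 2 apart. In the wild type it was 196 and 154 against replicates 1 and 3, and 69.6 between replicates 1 and 3. In pil1 it was 149.5 and 104 against replicates 1 and 3, and 36.9 between replicates 1 and 3.

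**Figure D1:**
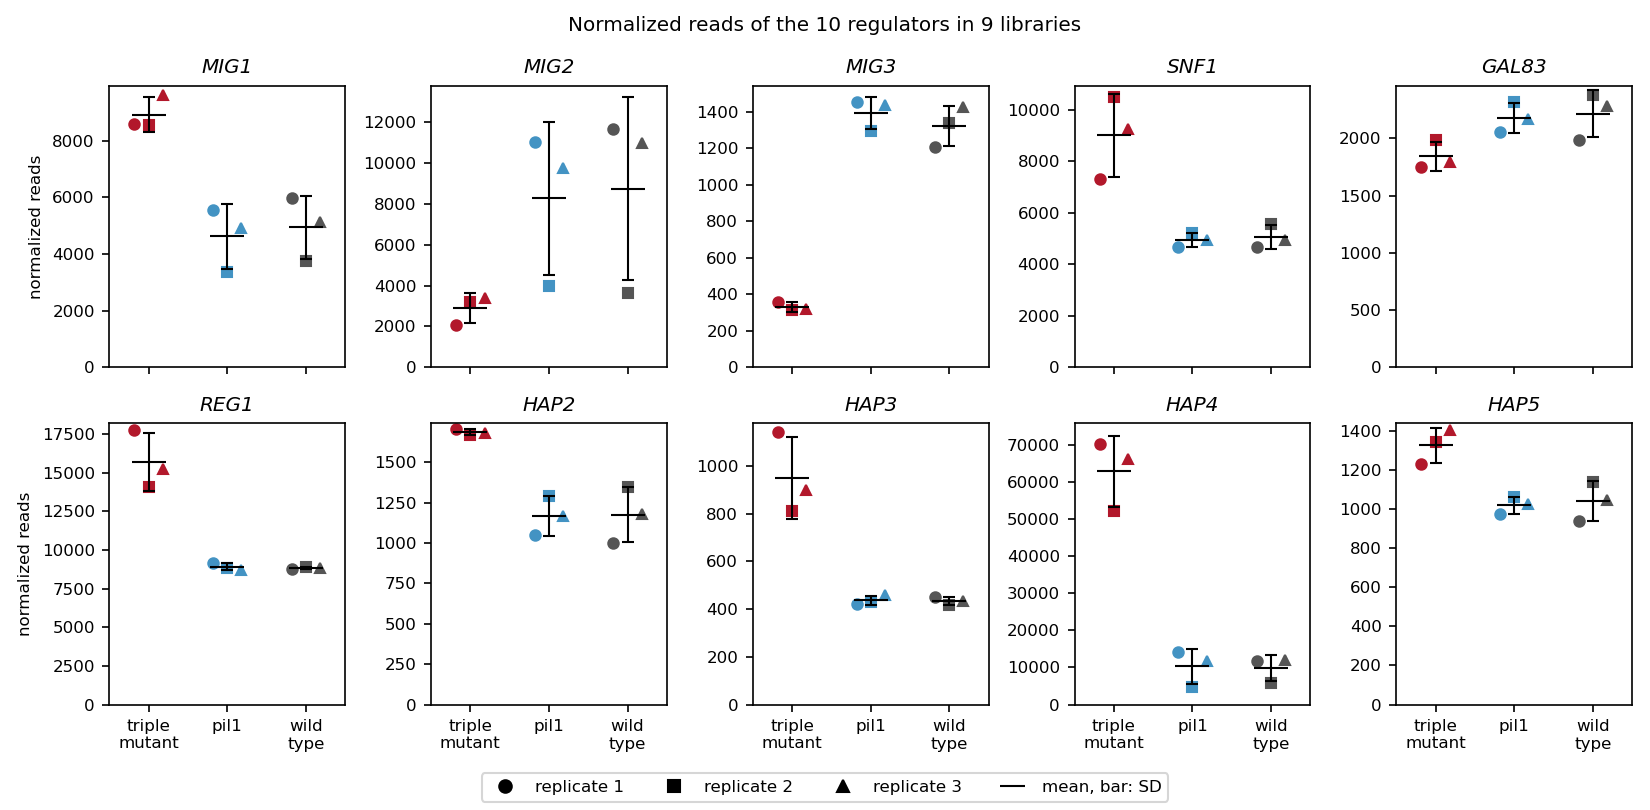
Normalized reads (y axis, from 0, own scale per panel) of the 10 regulators in the 3 libraries of the triple mutant, pil1 and the wild type (x axis), with a marker for each replicate, a line for the group mean and error bars of 1 SD (n = 3). HAP4 in the triple mutant (52163 to 70494.5) lies far above the other 6 libraries (4861 to 14227), and MIG3 in the triple mutant (315 to 360) lies below them (1209 to 1455).

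The comparison of the triple mutant with the wild type asked which genes respond when eisosomes and their partner proteins are removed together. All 10 regulators passed the test in this comparison (limma with Benjamini-Hochberg adjustment, called at an adjusted p under 0.05), 7 higher and 3 lower, in a background where 60.9% of all 5886 tested genes were called, 30.1% higher (1770) and 30.9% lower (1816). With scaling by total reads the split over all genes was 1029 higher and 2377 lower, and 5 regulators were called higher and 3 lower. HAP4 was 6.72-fold higher, HAP3 2.17-fold higher, MIG3 3.998-fold lower and MIG2 2.74-fold lower, while the other 6 moved by less than 2-fold. The median log2 fold change was 0.68 over the 10 regulators and -0.01 over all tested genes. Libraries of the 2 strains did not overlap for 9 of the 10 regulators, against 65.6% of all tested genes. Fewer cells of a kind and less RNA per cell cannot be told apart in such bulk samples, and every fold change was computed from log2(value + 1).

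HAP4, on chromosome XI at 232227 to 233891 of the plus strand (R64, as for all positions; each of the 10 coding sequences is uninterrupted), encodes the activating subunit. In replicates 1, 2 and 3 (the order used throughout) the triple mutant had 70494.5, 52163 and 66288.5 normalized reads of HAP4, pil1 had 14227, 4861 and 11735, and the wild type had 11736, 5723 and 11972. Every triple mutant library was above every other library, and replicate 2 was the lowest library in each of the 3 strains. The log2 fold change against the wild type was 2.75 ± 0.41 (SE, 95% interval 1.81 to 3.68, limma adjusted p = 0.00043), and against pil1 it was 2.74 (limma adjusted p = 0.000393). Per kb of coding length, HAP4 was the 94th of 5802 genes in the triple mutant, against 632nd in pil1 and 661st in the wild type.

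The DNA-binding subunits of the complex moved less. HAP3 (chromosome II, 181660 to 182094, minus strand) carries a histone-like fold and pairs with Hap5. It had 1143.5, 811 and 901.5 normalized reads in the triple mutant, 424, 431 and 459 in pil1, and 451, 419 and 434 in the wild type. The groups did not overlap, and the spread among the pil1 and wild type libraries was small beside the gap to the triple mutant. Its log2 fold change was 1.11 ± 0.12 against the wild type (SE, limma adjusted p = 7.3e-05). HAP2 (chromosome VII, 52731 to 53528, minus strand), which contacts the CCAAT letters, had 1706, 1669 and 1679 normalized reads in the triple mutant, 1047, 1293 and 1165 in pil1, and 1000, 1343 and 1180 in the wild type. The 3 triple mutant libraries lay close together and above all others, at a log2 fold change of 0.53 ± 0.12 against the wild type (SE, limma adjusted p = 0.00385). HAP5 (chromosome XV, 1010161 to 1010889, plus strand), the partner of Hap3, had 1230, 1345 and 1405 normalized reads in the triple mutant, 974, 1060 and 1025 in pil1, and 937, 1138 and 1048 in the wild type. Its groups did not overlap either, and its log2 fold change of 0.35 ± 0.09 (SE, limma adjusted p = 0.00955) was the smallest of the 4 subunits. With scaling by total reads, which moved the median of all tested genes to -0.23, HAP2 was at 0.31 (limma adjusted p = 0.127) and HAP5 at 0.13 (limma adjusted p = 0.453) against the wild type, so the calls of these 2 genes rest on the scaling.

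The balance within the complex was followed as the ratio of levels per kb of coding length inside each library. HAP4 stood at 19.8, 14.97 and 18.9 times the level of HAP2 in the triple mutant, 6.50, 1.80 and 4.82 times in pil1, and 5.62, 2.04 and 4.86 times in the wild type. The ratio was thus higher in every triple mutant library, on average 4.65-fold against the wild type. The ratio of HAP4 to HAP3 was 3.10-fold higher and that of HAP4 to HAP5 5.26-fold higher in the triple mutant than in the wild type, again without overlap. Each of these gave an exact two-sided permutation p = 0.1, the smallest that 3 libraries against 3 allow, and 0.15 after Benjamini-Hochberg adjustment over 24 tests of 8 gene pairs. HAP4 made up 86.0% ± 1.4 of the summed level of the 4 subunits in the triple mutant, 58.8% ± 14.99 in pil1 and 58.7% ± 11.9 in the wild type (SD, n = 3 each).

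MIG1 (chromosome VII, 431548 to 433062, minus strand) encodes the main zinc-finger repressor of glucose repression. It had 8603, 8553 and 9620 normalized reads in the triple mutant, 5568, 3365 and 4930 in pil1, and 5968, 3741 and 5114 in the wild type. The triple mutant libraries were all above the others, and replicate 2 was low in both pil1 and the wild type. MIG1 rose by 0.88 ± 0.21 on the log2 scale against the wild type (SE, 95% interval 0.40 to 1.36, limma adjusted p = 0.0059), or 1.84-fold.

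MIG2 (chromosome VII, 95858 to 97006, plus strand) encodes a related repressor that shares targets with Mig1. It had 2058, 3217 and 3390 normalized reads in the triple mutant, 11025.5, 3999 and 9767.5 in pil1, and 11670.5, 3615 and 10968.5 in the wild type. Replicate 2 of pil1 and of the wild type lay just above the highest triple mutant library, while replicates 1 and 3 of both strains were far above it. The log2 fold change against the wild type was -1.45 ± 0.51 (SE, 95% interval -2.60 to -0.31, limma adjusted p = 0.0318). This call was lost when any of triple mutant replicates 1, 2 or 3 or of wild type replicates 1 or 3 was left out, and without triple mutant replicate 1 the value was -1.23 (limma adjusted p = 0.103).

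MIG3 (chromosome V, 210692 to 211876, minus strand) encodes the third zinc-finger protein of this group. It had 360, 315 and 317 normalized reads in the triple mutant, 1455, 1295 and 1437.5 in pil1, and 1209, 1337.5 and 1428 in the wild type. All groups were tight, and no triple mutant library came near the others. MIG3 fell by 1.999 on the log2 scale (SE 0.10, limma adjusted p = 1.19e-06), the smallest p of the 10 regulators.

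Because MIG1 rose while MIG2 and MIG3 fell, the make-up of the family differed. MIG1 held 68.1% ± 4.4 of the summed level per kb of the 3 genes in the triple mutant, 27.7% ± 4.3 in pil1 and 28.9% ± 6.8 in the wild type (SD, n = 3 each). MIG2 held 28.7% ± 4.9 in the triple mutant, 61.0% ± 8.5 in pil1 and 60.5% ± 11.97 in the wild type (SD, n = 3 each). MIG3 held 3.25% ± 0.58 in the triple mutant, 11.3% ± 4.2 in pil1 and 10.7% ± 5.3 in the wild type (SD, n = 3 each). The most abundant of the 3 transcripts per kb was therefore MIG1 in the triple mutant and MIG2 in pil1 and the wild type, in each of the 3 libraries of every strain. The ratio of MIG1 to MIG2 was 3.17, 2.02 and 2.15 in the triple mutant, 0.383, 0.638 and 0.383 in pil1, and 0.388, 0.785 and 0.354 in the wild type. It was 5.04-fold higher in the triple mutant than in the wild type, with no overlap (exact two-sided permutation p = 0.1, adjusted 0.15). The ratio of MIG3 to MIG1 was 7.34-fold lower in the triple mutant than in the wild type, with the same exact permutation p.

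**Figure D2:**
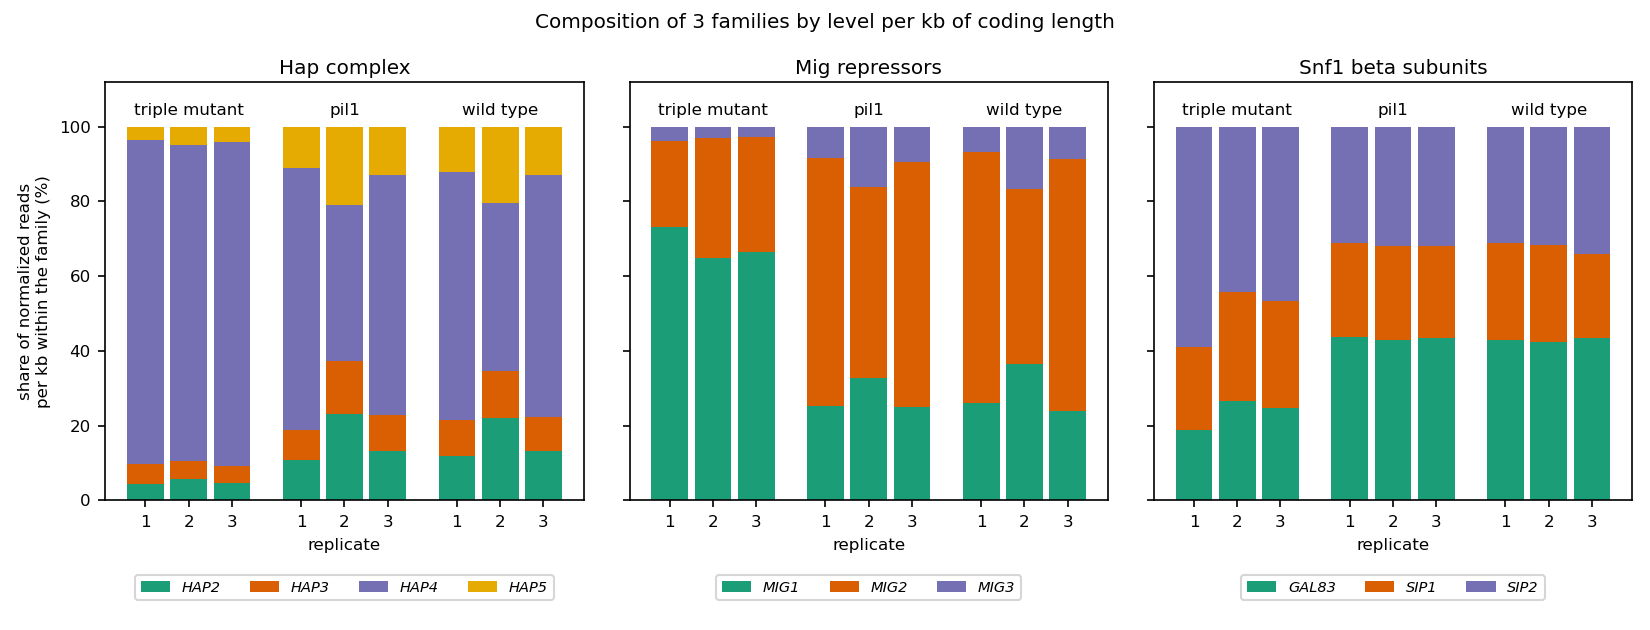
Share (y axis, percent) of each gene in the summed normalized reads per kb of its family, as stacked bars for replicates 1 to 3 of the triple mutant, pil1 and the wild type (x axis). MIG1 takes 64.8% to 73.1% of the Mig family in the triple mutant, GAL83 18.9% to 26.6% of the Snf1 beta subunits, and HAP4 84.4% to 86.8% of the Hap complex.

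SNF1 (chromosome IV, 1412373 to 1414274, plus strand) encodes the catalytic subunit of the kinase. It had 7298, 10483 and 9278 normalized reads in the triple mutant, 4682, 5234 and 4947 in pil1, and 4672, 5568 and 4936 in the wild type. No library of the other strains reached the lowest triple mutant value, and SNF1 was 1.77-fold higher than in the wild type (log2 fold change 0.82 ± 0.14, SE, limma adjusted p = 0.000763). GAL83 (chromosome V, 208979 to 210232, minus strand) encodes the beta subunit that takes the kinase into the nucleus. It had 1747, 1989 and 1794 normalized reads in the triple mutant, 2057, 2315.5 and 2167 in pil1, and 1985, 2378 and 2287 in the wild type. Replicate 2 of the triple mutant lay just above replicate 1 of the wild type, so these groups overlapped. GAL83 was 1.20-fold lower (log2 fold change -0.26 ± 0.09, SE, limma adjusted p = 0.0363), and the call was lost without triple mutant replicate 1 (-0.23, limma adjusted p = 0.0878) and without several other libraries. GAL83 follows MIG3 on the same strand with 459 bases between the coding sequences, and the sources used here do not state how reads between them were counted.

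REG1 (chromosome IV, 497835 to 500879, minus strand) encodes the subunit that directs the Glc7 phosphatase to Snf1. It had 17740, 14098 and 15259 normalized reads in the triple mutant, 9158, 8851 and 8725 in pil1, and 8752, 8897 and 8801.5 in the wild type. The 6 libraries of pil1 and the wild type lay close together, well below the triple mutant. REG1 was 1.77-fold higher than in the wild type (log2 fold change 0.83 ± 0.11, SE, limma adjusted p = 0.000167), so transcripts of the kinase and of its opposing phosphatase subunit were both higher.

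**Figure D3:**
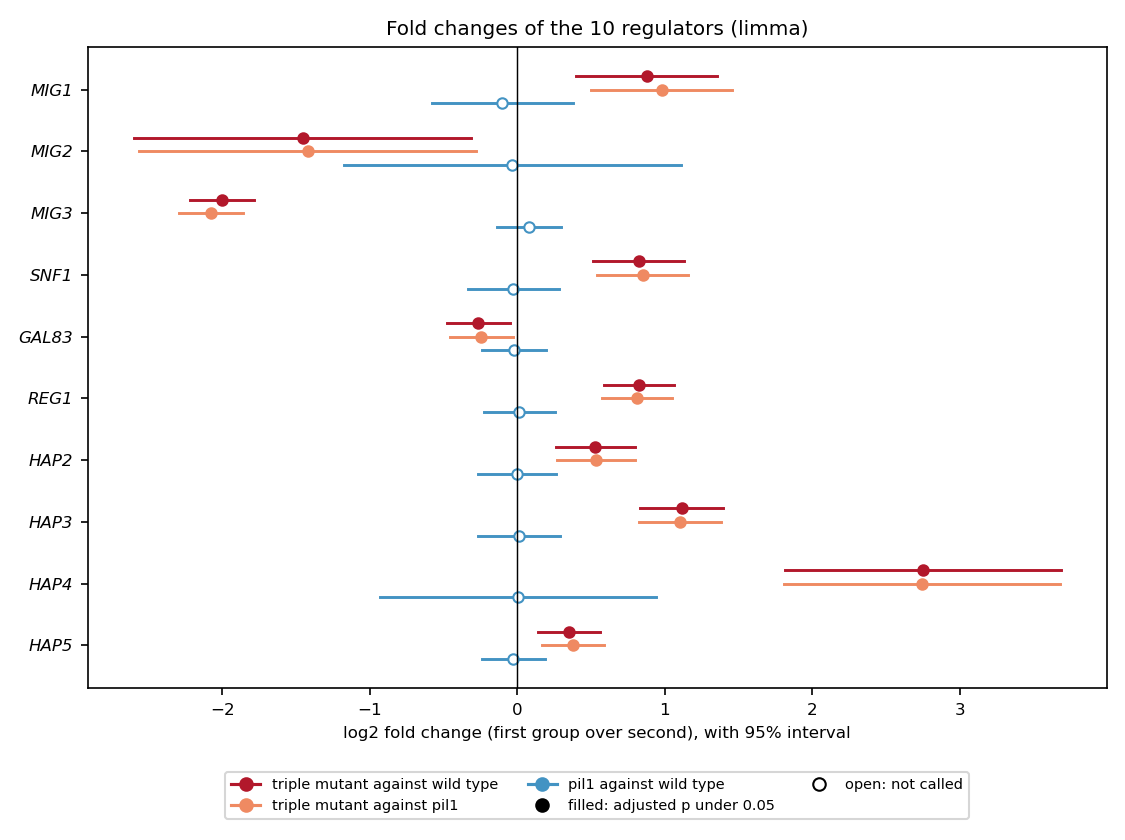
Log2 fold changes (x axis) of the 10 regulators (y axis) in the 3 comparisons, with 95% intervals from limma. The 2 comparisons that involve the triple mutant give nearly the same values, from 2.75 for HAP4 to -1.999 for MIG3 against the wild type, and every interval of pil1 against the wild type includes 0.

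The comparison of the triple mutant with pil1 asked what the added deletions change, with the same limit on LYS2. It shares the triple mutant libraries with the comparison above and so is not an independent repeat. The same test called 7 regulators higher and 3 lower, in a background of 62.9% called genes, 30.8% higher (1813) and 32.1% lower (1892; 1023 and 2570 with scaling by total reads), and groups did not overlap for any of the 10, against 69.3% of all tested genes. Log2 fold changes against pil1 were 2.74 for HAP4, 1.10 for HAP3, 0.98 for MIG1, 0.85 for SNF1, 0.81 for REG1, 0.53 for HAP2 and 0.38 for HAP5. They were -2.08 for MIG3, -1.42 for MIG2 and -0.24 for GAL83. The GAL83 call was the nearest to the threshold (limma adjusted p = 0.0488), and MIG2 again lost its call without triple mutant replicate 1, 2 or 3 or without pil1 replicate 1 or 3.

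The comparison of pil1 with the wild type asked what the loss of Pil1 alone changes. None of the 10 regulators was called by limma, in a background of 0.017% of all tested genes, which is PIL1 alone. No regulator had an unadjusted p under 0.05, against 59 of all tested genes, and neither edgeR nor DESeq2 on the recovered reads called a regulator. None of these tests pairs same-numbered libraries, although those of the 2 strains varied together, so small paired differences may be missed. A limma fit of only these 2 strains with the replicate number as a block called 1 gene over all tested genes and no regulator. Log2 fold changes lay between -0.10 for MIG1 and 0.08 for MIG3. The width of the 95% intervals differed among the genes. For REG1 the interval ran from -0.22 to 0.25, for MIG3 from -0.14 to 0.29 and for HAP3 from -0.27 to 0.29. For HAP4 it ran from -0.93 to 0.94 and for MIG2 from -1.18 to 1.11. With the replicate number as a block over all 9 libraries, these intervals were -0.49 to 0.50 for HAP4 and -1.04 to 0.97 for MIG2. That fit includes the triple mutant libraries, which varied less closely with the same-numbered libraries of the other strains. Libraries of the 2 strains overlapped for all 10 regulators, against 6.22% of all tested genes that did not overlap.

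The wide intervals of HAP4 and MIG2 come with replicate 2, which was low in pil1 and in the wild type. On the log2 scale HAP4 in replicate 2 lay 1.41 below the mean of the other 2 replicates in pil1 and 1.05 below it in the wild type. MIG2 lay 1.38 below in pil1 and 1.65 below in the wild type, and MIG1 lay 0.64 below in pil1 and 0.56 below in the wild type. HXK2, the hexokinase that also takes part in glucose repression, lay 1.21 below in pil1 and 1.11 below in the wild type. REG1, MIG3 and HAP3 showed no dip of this size. SNF1, GAL83, HAP2 and HAP5 were higher in replicate 2 of both strains, from 0.09 for HAP5 in pil1 to 0.31 for HAP2 in the wild type. In the triple mutant MIG2 was lowest in replicate 1 instead. Same-numbered pil1 and wild type libraries varied together over all genes (correlations of deviations from the group mean of 0.639, 0.833 and 0.579 for numbers 1 to 3), and pil1 minus wild type within a number was 0.28, -0.24 and -0.03 for HAP4 and -0.08, 0.15 and -0.17 for MIG2. These differences changed sign between numbers for both genes.

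**Figure D4:**
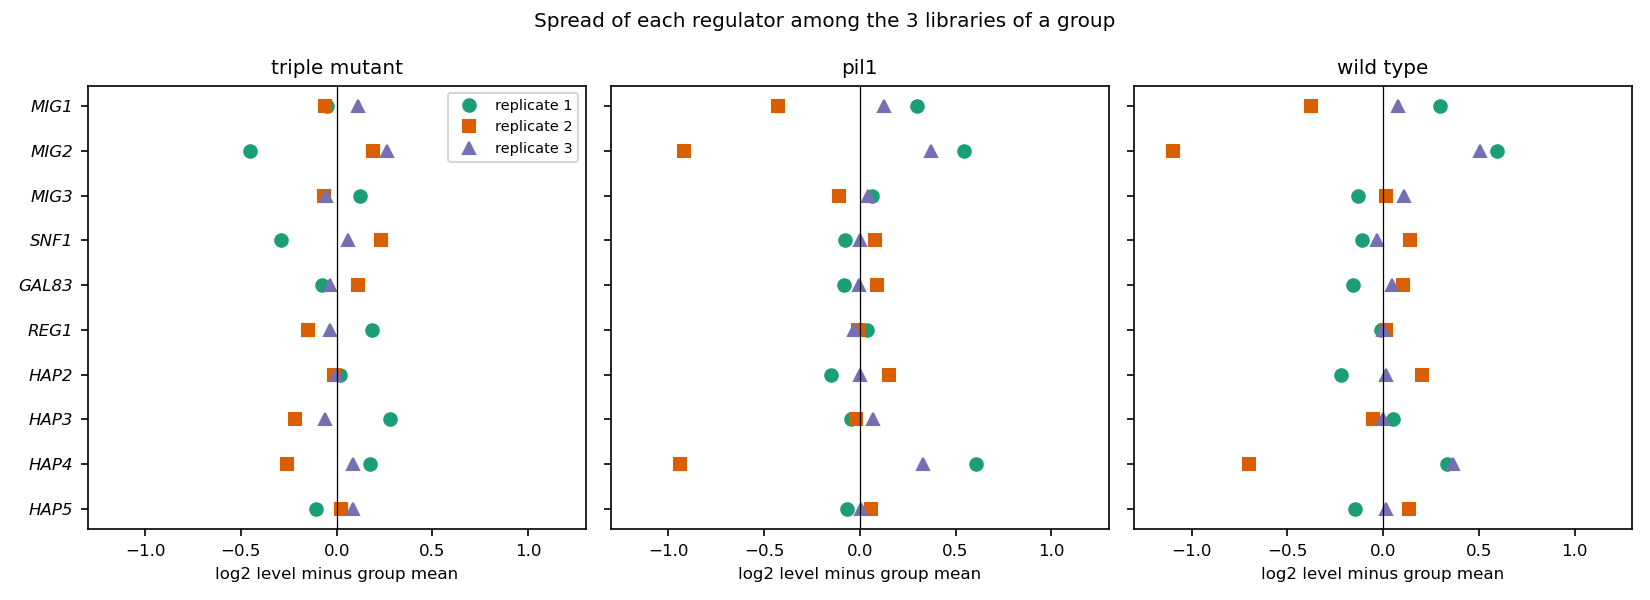
Log2 normalized reads minus the group mean (x axis) of the 10 regulators (y axis) in replicates 1 to 3 of the triple mutant, pil1 and the wild type (1 panel each). Replicate 2 is low for HAP4, MIG2 and MIG1 in pil1 and the wild type, and REG1 varies little in either strain.

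Of 7 genes for partners of the kinase, 3 were higher in the triple mutant than in the wild type, 2 were lower and 2 were not called, with a median log2 fold change of 0.33. Over all tested genes 30.1% were higher and 30.9% lower. SIP2 and SIP1, the other two beta subunits, rose 2.37-fold and 1.65-fold, and SIP5, a Snf1-interacting protein, rose 1.46-fold, a call that was lost with scaling by total reads (1.25-fold, limma adjusted p = 0.157) and with wild type 1 and triple mutant 1 both left out (limma adjusted p = 0.0861). TOS3 and ELM1, which encode upstream kinases of Snf1, fell by 1.78 and 0.40 on the log2 scale. The ELM1 call was lost without wild type replicate 1 (limma adjusted p = 0.0617), wild type replicate 2 (0.0619) or triple mutant replicate 3 (0.0802). TOS3 had 424, 618 and 917 normalized reads in the triple mutant, 2474, 1418 and 2947 in pil1, and 2219, 1332 and 3322 in the wild type, so it too was low in replicate 2 of pil1 and the wild type, but the triple mutant libraries did not overlap with theirs. SAK1, a further upstream kinase, was at 0.33 (limma adjusted p = 0.0595), and SNF4, the gamma subunit, at 0.01 (limma adjusted p = 0.9746). SAK1 was called higher with the replicate block (limma adjusted p = 0.0116) and DESeq2 (adjusted p = 0.0385). It was also called without wild type replicate 2 (limma adjusted p = 0.0339) or triple mutant replicate 1 (0.0216). Among beta subunits, GAL83 held 23.4% ± 4.0 of the summed level per kb in the triple mutant, 43.4% ± 0.5 in pil1 and 43.0% ± 0.5 in the wild type (SD, n = 3 each). SIP2 held 49.9% ± 8.0 in the triple mutant, 31.7% ± 0.5 in pil1 and 32.3% ± 1.5 in the wild type (SD, n = 3 each). The leading beta subunit transcript per kb was thus SIP2 in the triple mutant and GAL83 in the other strains. The 500 bases before SIP2 reach into MIG2, and how reads between these 2 genes were counted is not stated either. The ratio of SNF1 to SNF4 was 1.76-fold higher in the triple mutant than in the wild type, without overlap (exact two-sided permutation p = 0.1, adjusted 0.15).

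Around the phosphatase, 3 of 5 genes were higher in the triple mutant than in the wild type and 1 was lower, with a median of 0.52, beside 30.1% higher and 30.9% lower over all tested genes. GLC7, the catalytic subunit, rose 2.29-fold and BMH2, a 14-3-3 protein, 1.44-fold, whereas BMH1, its close relative, fell by 1.296 on the log2 scale. With scaling by total reads BMH2 was 1.23-fold higher and not called (limma adjusted p = 0.0509). BMH1 and BMH2 are 82.4% identical over most of their length, so reads could be shared between them. REG2, a relative of REG1 that also binds Glc7, had 4508, 663 and 952 normalized reads in the triple mutant, 148, 161 and 151 in pil1, and 166, 156 and 110 in the wild type. It was higher in every triple mutant library, with most of the size in replicate 1, and its fold of 9.93 became 5.57 without that library (limma adjusted p = 5.16e-05). HXK2 was at 0.45 and was not called (limma adjusted p = 0.333).

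Of the 4 corepressor and Nrg genes, 1 was higher, 1 lower and 2 not called, with a median of 0.01, which is near the shares over all tested genes (30.1% higher, 30.9% lower). TUP1 was at 0.00 (limma adjusted p = 0.978) and NRG1, a repressor regulated by Snf1, at 0.01 (limma adjusted p = 0.967). NRG2 fell by 1.37 on the log2 scale, and CYC8 was called higher at 0.35 (limma adjusted p = 0.0311), a call that was lost without any 1 of the 6 libraries of the comparison other than triple mutant replicate 2 and with scaling by total reads (limma adjusted p = 0.344). Of the 4 activators that act downstream of Snf1, 3 were higher and 1 was not called, with a median of 1.94, beside 30.1% higher over all tested genes. CAT8, an activator of gluconeogenic genes, was 9.50-fold higher, ADR1, an activator of alcohol and fatty acid use, 6.16-fold, and RDS2 2.40-fold. SIP4 stood at 7588, 2315 and 1787 normalized reads in triple mutant libraries, against 2314, 2679 and 1981 in the wild type, and its groups overlapped (0.45, limma adjusted p = 0.409, and -0.18, limma adjusted p = 0.424, without triple mutant replicate 1).

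Genes known to be repressed through Mig1 were higher in 8 of 9 measured cases and lower in none, with a median of 2.41 in the triple mutant against the wild type, beside 30.1% higher and 30.9% lower over all tested genes. This list, like the others, was chosen with earlier results of these data known, so its share is not an independent test. With scaling by total reads, 7 of the 9 were called higher. GAL1 and GAL4 were listed too and were not analysed here, and CAT8, REG2 and MTH1 belong to other lists as well. SUC2, invertase, had 4464, 3715 and 4689 normalized reads in the triple mutant, 566, 568 and 558 in pil1, and 601, 563 and 509 in the wild type. It was 7.66-fold higher than in the wild type (limma adjusted p = 2.73e-07), with small spread in every strain. HXK1, the hexokinase used on other carbon sources, was 7.36-fold higher and EMI2, a glucokinase relative, 5.33-fold. HXT4, a glucose transporter, was called higher (4.68-fold, limma adjusted p = 0.0265), but its groups overlapped, the call was lost without several libraries and with scaling by total reads (limma adjusted p = 0.0561), and it became 7.68-fold without triple mutant replicate 1. HXT2 was the member not called (2.05-fold, limma adjusted p = 0.245), and without triple mutant replicate 1 it was at 1.17-fold (limma adjusted p = 0.742). Both HXT genes resemble other transporter genes at 73.2% to 84.0% identity. All 9 promoter windows held Mig1-type letters, beside 22.5% of all windows in the genome, in a list of genes known as Mig1 targets.

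Genes known to depend on the Hap complex were higher in 16 of 16 cases, with a median of 2.36, beside 30.1% higher over all tested genes. This list too was chosen with earlier results of these data known, so its share is not an independent test. SDH1, a succinate dehydrogenase subunit, rose 9.40-fold, COX4, a cytochrome oxidase subunit, 7.80-fold, COX6, another subunit of that enzyme, 5.14-fold, and COR1 of the bc1 complex 4.64-fold. COX4 had 26405, 16220 and 21705 normalized reads in the triple mutant, 2741, 2540 and 3057 in pil1, and 2840, 2515 and 2735 in the wild type. The lowest rise was that of LPD1, a shared dehydrogenase subunit, at 2.41-fold. Of the 16 promoter windows 13 held CCAAT, beside 62.7% of all windows in the genome, in a list of genes known to depend on the complex. The windows of CYC1, CYT1 and COX4 held none. Without triple mutant replicate 1, 16 of 16 Hap-dependent genes and 8 of 9 Mig1-repressed genes were still called higher. In pil1 against the wild type limma called none of the genes of these lists, with medians of -0.05 for the Hap-dependent and 0.02 for the Mig1-repressed genes, and none had an unadjusted p under 0.05. Among these lists, HXT4, HXT2, HEM1, MTH1 and CIT1 were among the genes low in replicate 2 of pil1 and the wild type, as HAP4 was. HXT4 lay 1.73 below the mean of the other replicates in pil1 and 1.41 below it in the wild type on the log2 scale, HXT2 1.53 below in pil1 and 1.14 below in the wild type, and HEM1 0.79 below in pil1 and 0.93 below in the wild type. MTH1 lay 0.78 below in pil1 and 0.49 below in the wild type, and CIT1 0.50 below in pil1 and 0.25 below in the wild type. COX4 lay 0.19 below in pil1 and 0.15 below in the wild type, and SUC2 differed by less than 0.05 in both strains.

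**Figure D5:**
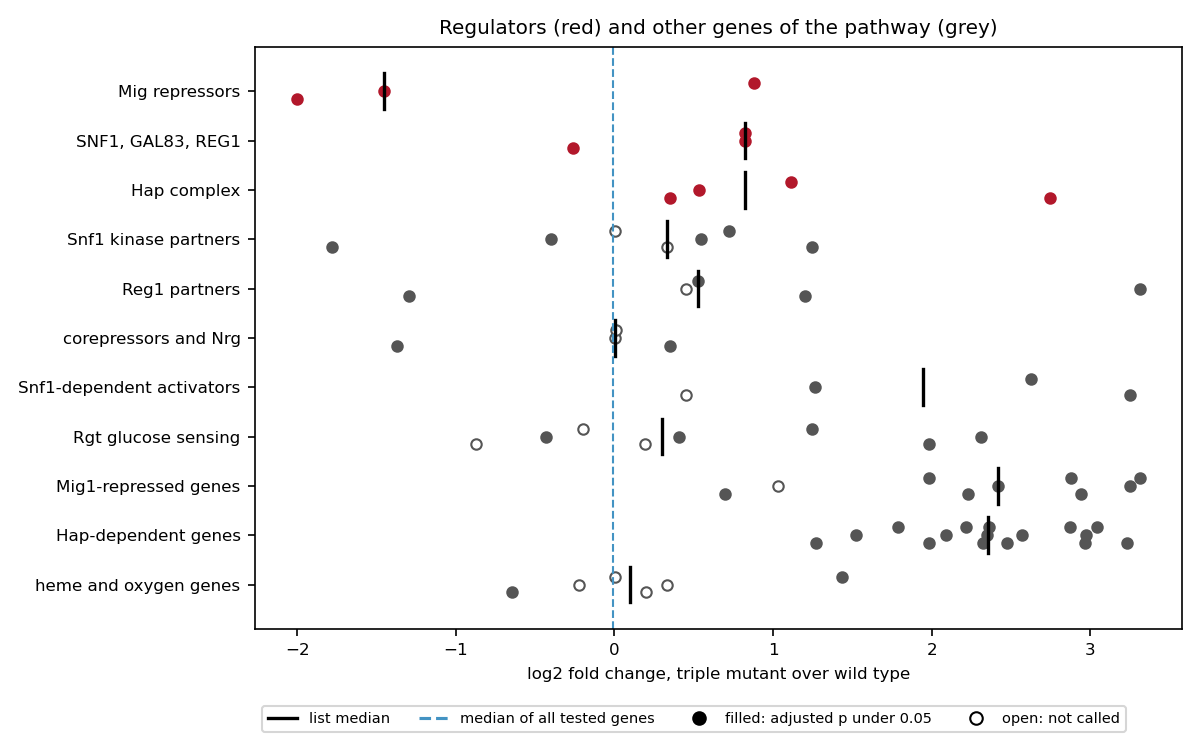
Log2 fold change of the triple mutant over the wild type (x axis) for each gene of the regulator groups (red) and of the other lists of the pathway (grey), 1 row per list (y axis), with the list median as a black bar, the median of all tested genes as a dashed line, and open points for genes that limma did not call. All 16 Hap-dependent genes lie between 1.27 and 3.23, and the Mig repressors spread from -1.999 to 0.88.

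Genes outside these lists with the most similar pattern were found by the root mean square difference of centred log2 values over the 9 libraries. For HAP4 they were GRE1 at 0.29, CSR2 at 0.31 and TRA1 at 0.37, beside a median of 1.41 over all genes. For MIG1 they were HIP1 at 0.10, ILV2 at 0.15 and PUF3 at 0.15, beside a median of 0.56. For MIG2 they were PRP43 at 0.15, RPA49 at 0.19 and HAS1 at 0.21, beside a median of 0.93. For MIG3 they were TUB2 at 0.098, CHO2 at 0.11 and ECM33 at 0.13, beside a median of 0.97.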

How the data were processed

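The deposited signal covers 6215 genes in 9 libraries and equals a count of reads over a size factor, as the values show: whole reads were recovered for 100% of them (tolerance 1e-06) from the step of each column. The authors also deposited log2 values after a transformation that the sources used here do not describe, which served as an alternative. The submitters' processing notes name GSNAP, DESeq2, DESeq and build R64 without versions or roles. The sources used here do not name the counter, annotation or use of strand, so antisense reads cannot be told apart; none of the genes named from the lists overlaps another annotated gene.

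Limma 3.58.1 (R 4.3.3; lmFit, eBayes with trend and robust) was fitted on log2(value + 1) with all 9 libraries and group means, for the 5886 genes with a mean of at least 10 (329 were left out), two-sided, with Benjamini-Hochberg adjustment over all of them and calls at 0.05. The fit was tested on simulated data. Alternatives were edgeR 4.0.16 and DESeq2 1.42.0 on the recovered reads, TMM and total-read scaling, the log2 table, only the groups compared, no filter, a pseudocount of 5, a minimum of 50, the replicate number as a block, and each library left out. Ratios within a library used levels per kb of coding length and exact permutation tests. Replicates are biological per the labels; no pair of libraries agreed within sampling noise.

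The fit behind the printed tests and intervals has no pairing; the block is an alternative, given beside the result where the text says so. Replicate numbers pair pil1 and wild type libraries by their correlations of 0.639, 0.833 and 0.579, a check on the data and not a statement of the labels. For the triple mutant these correlations were positive but lower, at 0.0499, 0.191 and 0.362 with the wild type and 0.0694, 0.237 and 0.439 with pil1. Whether its replicate numbers pair with those of the other strains is therefore not settled.

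The text names every regulator, up to 4 genes of each list with the smallest p and those against the majority of their list, and 3 genes most like HAP4, MIG1, MIG2 and MIG3. A few other list members, such as those not called, are named with their values. The regulators and lists were chosen with earlier results of these data known. Sequences and positions came from the RefSeq R64 assembly, and windows reach into neighbouring genes where these are close.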

Additional observations from a re-analysis of the deposited data

How the results depend on the processing

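In both comparisons with the triple mutant, 8 to 10 of the 10 regulators were called under every alternative, the calls lost being those of MIG2, GAL83, HAP2 and HAP5, and no regulator changed direction. Over all alternatives the log2 fold change against the wild type ran from 2.40 to 2.93 for HAP4, 0.65 to 1.05 for MIG1, -2.22 to -1.79 for MIG3, 0.60 to 0.97 for SNF1, 0.60 to 0.90 for REG1 and 0.89 to 1.22 for HAP3, with each of these called throughout. MIG2 ran from -2.004 to -0.93 (adjusted p up to 0.246, with wild type 1 and triple mutant 1 both left out), and GAL83 from -0.49 to -0.21. GAL83 against the wild type was not called with only the groups compared (limma adjusted p = 0.0686), and against pil1 it was not called with TMM scaling (0.0562), no filter (0.0510) or only the groups compared (0.0526). With scaling by total reads, HAP2 was at 0.27 (limma adjusted p = 0.161) and HAP5 at 0.12 (0.477) against pil1, where the median of all genes was -0.27.

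In pil1 against the wild type no alternative called a regulator. Over all genes DESeq2 called 2, against 1 in the main test. Values near 0 changed sign: HAP4 was at -0.00039 with TMM scaling, and with scaling by total reads SNF1 was at 0.0052, GAL83 at 0.011, HAP2 at 0.030 and HAP5 at 0.0069. Without wild type 1 and triple mutant 1, MIG1 was at 0.047 and MIG2 at 0.26. With each library left out in turn, log2 fold changes ran from -0.29 to 0.11 for MIG1, -0.58 to 0.42 for MIG2, -0.083 to 0.044 for SNF1, -0.099 to 0.031 for GAL83, -0.0047 to 0.030 for REG1, -0.11 to 0.10 for HAP2, -0.024 to 0.037 for HAP3, -0.35 to 0.47 for HAP4 and -0.10 to 0.041 for HAP5. Log2 ratios ran from -0.45 to 0.55 for HAP4 to HAP2, -0.33 to 0.45 for HAP4 to HAP3, -0.39 to 0.53 for HAP4 to HAP5, -0.31 to 0.29 for MIG1 to MIG2, -0.035 to 0.37 for MIG3 to MIG1, -0.072 to 0.056 for SNF1 to SNF4 and -0.21 to 0.085 for REG1 to REG2. The cause of these shifts was not tested.

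With the replicate block, limma called 4024 genes in the triple mutant against the wild type, 4162 against pil1 and 1 in pil1 against the wild type, and the block changed no call of a regulator. Same-numbered triple mutant libraries correlated with the wild type at 0.0499, 0.191 and 0.362 and with pil1 at 0.0694, 0.237 and 0.439. In pil1 against the wild type the block narrowed the 95% interval of HAP4 to -0.49 to 0.50 and that of MIG2 to -1.04 to 0.97.

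The regulators with the fewest reads were MIG3 (at least 251 in a library) and HAP3 (at least 466), and 3 libraries a group set the precision. Leaving out a library leaves 2 in its group, and the spread is then shared with the other groups.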

Other observations

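The branch of glucose sensing that works through the repressor Rgt1 had 4 of 8 genes higher and 1 lower in the triple mutant than in the wild type, with a median log2 fold change of 0.30. Over all tested genes 30.1% were higher and 30.9% lower, and with scaling by total reads 3 of the 8 were higher and 3 lower. SNF3, the sensor of low glucose, had 9591, 8136 and 9046 normalized reads in the triple mutant, 1799, 1686 and 1783 in pil1, and 1869, 1953 and 1579 in the wild type, and was 4.96-fold higher than in the wild type (limma adjusted p = 7.79e-07). Its counterpart RGT2, the sensor of high glucose, was at -0.20 and was not called (limma adjusted p = 0.0655). With scaling by total reads RGT2 was called at -0.42 (limma adjusted p = 0.00273), and it was also called with the replicate block (0.0137). MTH1, an Rgt1 cofactor, was 3.95-fold higher and RGT1 itself 2.37-fold higher, while YCK2, a membrane-bound casein kinase, fell by 0.43 on the log2 scale. STD1, the relative of MTH1, stood at 783, 2184 and 2300 normalized reads in triple mutant libraries, against 2655, 2843 and 3185 in the wild type. It was not called (-0.87, limma adjusted p = 0.0555). Without triple mutant replicate 1 it was called at -0.36 (limma adjusted p = 0.0183), without replicate 2 at -1.10 (0.0353) and without replicate 3 at -1.14 (0.0272). STD1 was also called lower with scaling by total reads (limma adjusted p = 0.0315), the replicate block (0.0344) and DESeq2 (adjusted p = 0.0426).

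Of 6 regulators and markers of heme and oxygen, 1 was higher and 1 lower in the triple mutant than in the wild type, with a median of 0.10, beside 30.1% higher and 30.9% lower over all tested genes. CYC7, the second cytochrome c gene, was 2.70-fold higher, beside 8.23-fold for CYC1, and these 2 genes are 80.0% identical over most of their length. MOT3 fell by 0.65 on the log2 scale. HAP1, the heme-responsive activator, was at -0.22 (limma adjusted p = 0.185; -0.45 and called with scaling by total reads, 0.0412), ROX1 at 0.33 (limma adjusted p = 0.247), HEM13 at 0.00 (limma adjusted p = 0.988) and COX5B at 0.20 (limma adjusted p = 0.286). COX5A, the aerobic partner of COX5B, was 7.84-fold higher.

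Markers of MATα cells were lower in 4 of 4 cases in the triple mutant than in the wild type, and markers of MATa cells in 5 of 6, beside 30.9% lower over all tested genes. The MATa list summed to 564 to 568 normalized reads in the triple mutant, 1326 to 1673 in pil1 and 1421 to 1827 in the wild type, with none of its genes at 0. Their part in the results above was not tested.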
